A study of Mus musculus with 12 samples.

Results

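The nuclear genes for the subunits of oxidative phosphorylation were followed in mouse prefrontal cortex after viral overexpression or knockdown of Ttr, the gene for transthyretin, a carrier of thyroxine and retinol that is made mainly by liver and choroid plexus. Members were taken by symbol. They are the genes named Nduf (with a, b, c, s or v and a number), Sdha to Sdhd, Uqcr, Cox4 to Cox8, Cycs and Atp5, without symbols that carry -ps, and with at least 10 counts over the 12 libraries. This gave 84 of the 55401 genes in the count table: 36 of complex I, 4 of complex II, 8 of complex III, 18 of complex IV, 17 of complex V and Cycs. Of the 93 symbols that matched, 7 carried -ps and 2 held under 10 counts, namely Cox8c with 1 count and a second identifier of Atp5o with 0. The members held 0.785% to 0.886% of each library's counts. Members covered 82 of the 18289 genes that passed the expression filter, and Cox7b2 and Cox8b, with 90 and 10 counts in all, did not pass.

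All animals were male C57BL/6J mice, 14 weeks old, sampled 4 weeks after adeno-associated virus had been placed in the dorsomedial prefrontal cortex of each hemisphere. There were 3 groups with 4 libraries each. Controls received GFP under the CAG promoter, the overexpression group GFP joined through P2A to Ttr under the same promoter, and the knockdown group a U6-driven hairpin against Ttr with CAG-driven GFP. CAG is active in most cell types, all groups carried GFP, and the control vector came from another supplier than the Ttr vectors, so vector source and group cannot be told apart. The labels do not say whether each library is a separate mouse, so p-values measure the spread between these libraries, which may be technical in part. Poly(A) RNA was counted per gene, with 19879629 to 37166146 counts per library.

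Ttr itself had 14, 200, 18 and 18 counts in the control libraries, 20940, 8527, 7263 and 2121 under overexpression, and 3, 47, 29 and 13 under knockdown. All overexpression libraries were above all controls, while the knockdown range lay across the control range. Overexpression raised Ttr by 7.01 ± 0.81 (SE, log2; adjusted p = 0.0168, edgeR quasi-likelihood test over all genes). For knockdown the difference was -1.41 ± 1.16 (SE, log2; adjusted p = 0.936, edgeR), and without control replicate 2, which holds 200 counts, it was 0.60 ± 1.18. Counts of the other 3 controls lay within the knockdown range, so a lower Ttr level was not shown in the libraries labelled knockdown. Neuron markers were present in every library, with 12 of 12 tested and a summed level of 13500 to 17100 CPM (counts scaled to a common library size, computed here). Only 2 of 6 markers of skeletal muscle or heart passed the filter.

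Oxidative phosphorylation passes electrons from NADH through complex I, or from succinate through complex II, to ubiquinone, then through complex III, cytochrome c and complex IV to oxygen. Proton pumping by complexes I, III and IV drives ATP synthesis by complex V. Most subunits come from nuclear genes and the rest from mitochondrial DNA, and in the cortex this pathway supplies most ATP for ion pumping and synaptic transmission. Nuclear respiratory factor 1 (NRF1), the ETS-family factor GABP (also called NRF2, with its DNA-binding subunit from Gabpa) and YY1 are known to bind promoters of many of these genes.

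Short stretches of 4 promoters show the letters through which such factors are known to bind. RefSeq windows (GRCm38.p6, 250 bases before to 50 after the start) were found for 67 of the 84 members, 72 windows in all, and 4 motifs were searched on both strands. The NRF1 core GCATGCGC was in 15.3% of the members' windows and in 2.71% of all 32851 windows of the same length. The ETS core CCGGAAG was in 22.2% against 8.86%, and the YY1 core AAGATGGC in 12.5% against 2.75%. TATAAA, the TATA box, was in 11.1% against 13.6%. The last 3 letters of the ETS core are the first 3 of the YY1 core, so that pair can overlap. Both the NRF1 and the ETS core stood in the windows of 5 members, Atp5k, Atp5l, Cox6a1, Sdhb and Uqcr11, which is 6.94% of the members' windows against 0.521% of all. The 4 stretches lie at chr6:50566576-50566675 (Cycs, minus strand), chr4:140961171-140961270 (Sdhb, plus strand), chr9:44920893-44920992 (Atp5l, minus strand) and chr16:84834998-84835097 (Atp5j, minus strand). They are printed 5′ to 3′ on the gene's strand. Capitals mark the NRF1 core in Cycs and Sdhb, the NRF1 then the ETS core in Atp5l, and the YY1 then the ETS core in Atp5j.
Cycs: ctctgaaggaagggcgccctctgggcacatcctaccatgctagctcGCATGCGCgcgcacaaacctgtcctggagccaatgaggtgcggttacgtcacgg
Sdhb: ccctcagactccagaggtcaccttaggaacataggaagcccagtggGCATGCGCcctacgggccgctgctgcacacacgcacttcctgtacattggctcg
Atp5l: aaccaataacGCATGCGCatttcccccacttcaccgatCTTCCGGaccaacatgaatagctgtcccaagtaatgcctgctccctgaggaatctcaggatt
Atp5j: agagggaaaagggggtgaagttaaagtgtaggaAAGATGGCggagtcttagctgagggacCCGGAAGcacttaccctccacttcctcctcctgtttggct
The Atp5j stretch lies within the region shared head to head with Gabpa, which is transcribed from the other strand. A match describes letters only, and no binding was measured.

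Levels spanned a wide range within complexes, while the complex medians lay close together. Per transcript length, in the authors' deposited TPM, the median member level in the control group was 170 for complex I, 189 for complex II, 254 for complex III, 196 for complex IV and 204 for complex V. The highest was Cox4i1, the common form of the regulatory subunit 4 of cytochrome c oxidase, at 1470 ± 87.0 TPM (SD, n = 4). Next came Atp5b, the catalytic beta subunit of ATP synthase, at 1450 ± 65.9 TPM, a gap well within the SDs. Cox8a stood at 891 ± 72.5 TPM and Atp5a1, the alpha subunit, at 808 ± 20.6 TPM.

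In complex I several core subunits that carry the flavin and iron-sulfur clusters lay close to each other. Ndufv1 was at 240 ± 11.4 TPM, Ndufv2 at 174 ± 6.14, Ndufs8 at 164 ± 8.49, Ndufs7 at 151 ± 11.1 and Ndufs1 at 147 ± 5.46 (SD, n = 4 each). The accessory subunits Ndufa9 and Ndufa10 were at 181 ± 4.99 and 155 ± 7.60 TPM. Ndufa4, named as a complex I subunit and since assigned to complex IV, was the highest of the symbols counted with complex I at 681 ± 39.1 TPM.

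In complex II the flavoprotein gene Sdha had 374 ± 3.38 TPM and the iron-sulfur subunit gene Sdhb 237 ± 17.5. The membrane anchors were lower, with Sdhd at 141 ± 7.39 and Sdhc at 65.4 ± 3.79 TPM. Complex III ran from Uqcrh, the hinge protein, at 446 ± 25.4 TPM down to Uqcrq at 126 ± 12.4. Between them were the core proteins Uqcrc1 and Uqcrc2 at 315 ± 16.3 and 274 ± 9.28 TPM, the Rieske iron-sulfur protein Uqcrfs1 at 200 ± 9.78 and Uqcrb at 145 ± 9.79.

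Complex IV held the widest range, because it includes the forms known from muscle, lung or testis. Cox4i2 was at 4.37 ± 0.408 TPM. The muscle forms Cox6a2 and Cox7a1 stood at 11.7 ± 0.995 and 3.74 ± 1.23 TPM, beside 795 ± 73.8 and 366 ± 15.1 for their common partners Cox6a1 and Cox7a2. The testis form Cox6b2 was at 5.94 ± 1.15 TPM and Cox6b1 at 596 ± 46.7. Cox8b had 0 to 3 counts and Cox7b2 1 to 12 counts in any library. Cox7a2l was at 164 ± 6.84 TPM.

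In complex V the c-ring protein is made from 3 genes with the same mature product. Atp5g3 had 707 ± 41.2 TPM, Atp5g1 14.5 ± 0.519 and Atp5g2 2.77 ± 0.551. Cycs, the gene for the soluble electron carrier cytochrome c, had 8.96 ± 0.844 TPM. Over the 12 libraries the processed pseudogene Gm10039, a copy of Atp5g1, had 15141 counts against 8768 for Atp5g1. Their coding sequences were 99.9% identical, averaged over 60-base windows. Atp5g2 had 259 counts beside 85 for its copy Gm10175, and Cycs 3633 beside 1177 for its copy Gm10053. The levels of Atp5g1, Atp5g2 and Cycs are uncertain, since the counting could split reads between gene and copy. All the levels above also depend on the length used. In the deposited TPM, 78.3% of 13455 genes matched division by the longest annotated transcript (within 1%). In 13 members that transcript is more than 2 times as long as the annotation's principal one, but not all of them were divided by it. Ndufb7, at a length ratio of 7.12, had 202 TPM and 80.7 CPM per kilobase of its principal transcript. Ndufv1, at a length ratio of 1.0, had 240 and 95.7, a like relation of TPM to CPM. On the principal transcript Uqcrq moved from rank 60 to rank 11 of the members, at 190 ± 19.4 CPM per kilobase, and Cox6c from rank 16 to rank 10, at 193 ± 6.02. Atp5g1 then reached 45.9 ± 1.40 CPM per kilobase against 1.83 ± 0.343 for Atp5g2. Cox4i1 and Atp5b remained the highest, at 604 ± 42.8 and 580 ± 24.4 CPM per kilobase.

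**Figure D1:**
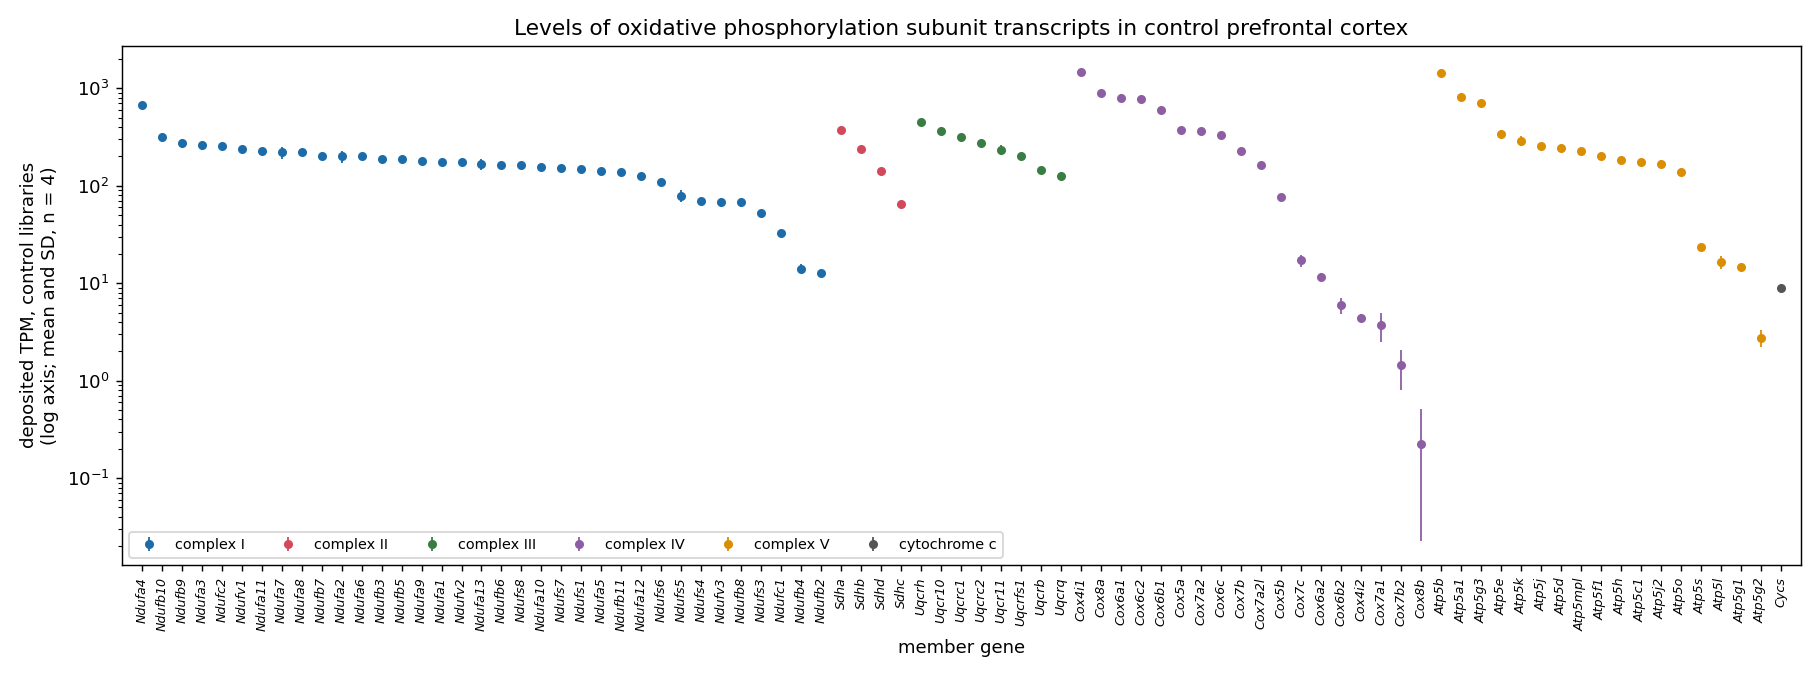
Mean deposited TPM of the members shown in the 4 control libraries (log axis, bars are SD, n = 4), ordered within each complex; the downward bar of Cox8b, whose SD exceeds its mean, is cut short on the log axis. Cox4i1 and Atp5b lead at 1470 and 1450 TPM, and the low tail of complex IV holds the muscle, lung and testis forms.

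Many members share their sequence with intronless copies elsewhere in the genome, which limits how reads can be assigned. Among the 84 members, 36 had no 50-base word in common with any other gene's transcripts, 58 were at least 90% unique, and 11 were under 70%, down to 15.2% for Atp5l. Copies that share 54 or more such words with a member numbered 33, belonged to 19 members, and 9 of them held more counts than the member. Over the 12 libraries Gm10250, annotated as a processed pseudogene on chromosome 15, had 35547 counts while Atp5h, its spliced parent on chromosome 11, had 15591. Gm12338 had 12103 and Cox7c 1126, and Gm10221 had 10214 and Atp5l 1242. The plot of member and copy counts shows the 18 copies with over 1000 counts.

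**Figure D2:**
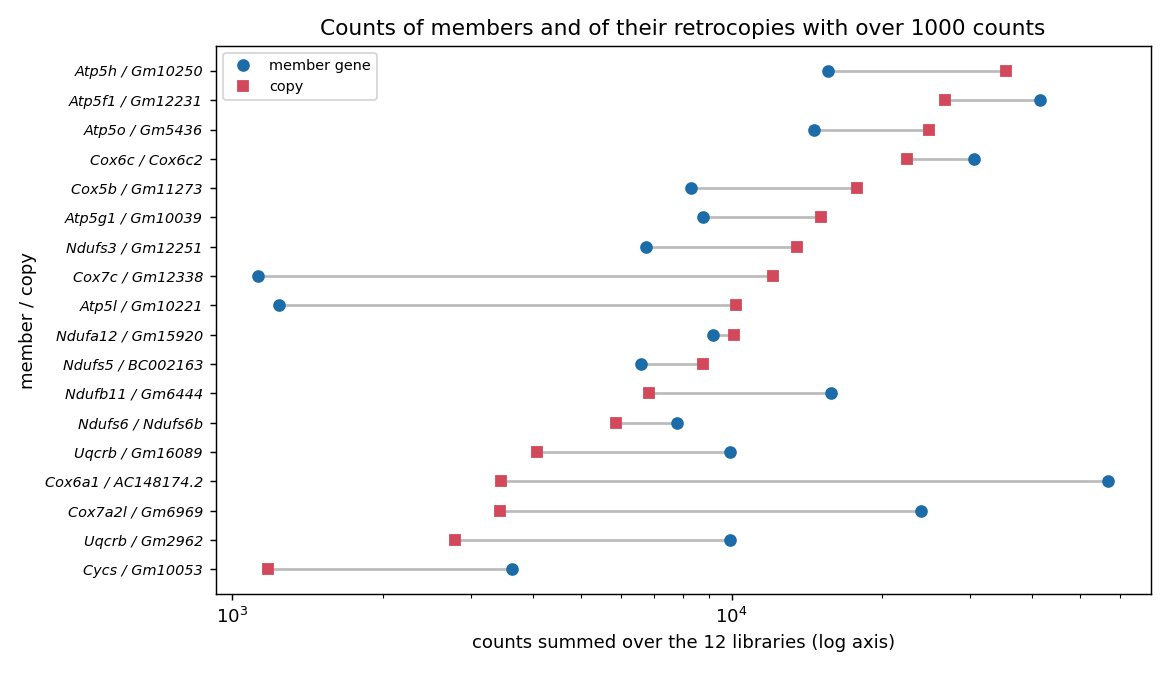
Counts summed over the 12 libraries (log axis) for each member (circle) and each of its 18 copies with over 1000 counts (square), joined by a line. In 9 pairs the copy lies to the right of the member, with the widest gaps at Cox7c and Atp5l.

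Cox6c2, itself a member by its symbol, is annotated as a processed pseudogene at chr12:56373593-56373823 and had 22498 counts beside 30592 for Cox6c. Stretches of the coding sequence (60 bases, positions counted from 1 at the start codon, from the GENCODE transcripts on GRCm38) show how little separates such pairs. The Cox6c stretch (85 to 144) differs from Cox6c2 in 0 bases, the Ndufs3 stretch (365 to 424) from Gm12251 in 1, and the Cox5b stretch (164 to 223) from Gm11273 in 1. Capitals mark the bases that differ.
Cox6c: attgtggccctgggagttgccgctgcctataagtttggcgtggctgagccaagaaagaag
Cox6c2: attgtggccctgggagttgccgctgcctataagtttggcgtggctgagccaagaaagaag
Ndufs3: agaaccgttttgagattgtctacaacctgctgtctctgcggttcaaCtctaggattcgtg
Gm12251: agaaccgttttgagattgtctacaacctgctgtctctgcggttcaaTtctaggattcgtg
Cox5b: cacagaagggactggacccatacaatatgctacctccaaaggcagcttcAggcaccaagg
Gm11273: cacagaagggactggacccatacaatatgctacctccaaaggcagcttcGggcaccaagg
Identity was also averaged over all 60-base windows of the coding sequence, each set at its best match in the copy. It was 97.5% for Cox6c and Cox6c2, 98.7% for Ndufs3 and Gm12251, and 99.1% for Cox5b and Gm11273. Values of these members are uncertain, since the counting could split their reads with the copy. For 28 members an annotated gene overlaps on the opposite strand, and the strand setting of the counting is not given in the sources used here. Reads of Atp5j and Gabpa, which overlap at their starts, could therefore not be told apart there.

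Overexpression against control is the comparison that asks whether added Ttr shifts this gene set. No member passed the test: 0 of 82 had an adjusted p under 0.05, and the smallest adjusted p among members was 0.776 (edgeR quasi-likelihood test, Benjamini-Hochberg over 18289 genes). Over all genes tested the share called was 0.00547%, which is Ttr alone. DESeq2 called 0.208% of genes and limma-voom 0.0%, in each case with 0 members. At an unadjusted p under 0.05 there were 2 of 82 members, against 6.26% of all genes.

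Differences were small and mostly of the same sign. The log2 difference was below 0 in 68 of 82 members, 82.9%, where 48.6% of all genes were, and the members' median was -0.056 against 0.0038 over all genes. Single differences ran from -0.15 to 0.34, and 74 members lay within 10% of the control level. By complex, the median was -0.072 for complex I, with 33 of 36 below 0. It was -0.018 for complex II with 4 of 4, -0.042 for complex III with 7 of 8, -0.063 for complex IV with 12 of 16, and -0.041 for complex V with 11 of 17. Between libraries of a group, the level of a whole complex varied with a pooled SD of 0.0563 to 0.0864. With the deposited TPM the members' median was -0.0080 and 47 of 82 were below 0, while the median of all genes moved to 0.0507, so members stayed below the bulk of genes by a similar amount. On that scale the medians of complexes II, III and V were above 0, at 0.031, 0.0083 and 0.0062, and with total counts alone complex II was at 0.0057.

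The size of this shift rested on single libraries. Without overexpression replicate 1 the members' median was -0.030 and without control replicate 4 it was -0.031. Without overexpression replicate 2 or 4 it was -0.096 or -0.092, and without control replicate 3 it was -0.090. The sign was the same in all 8 of these fits.

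The smallest unadjusted p belonged to Atp5h, subunit d of the peripheral stalk of ATP synthase (ENSMUSG00000034566, chr11:115415689-115419962). Its levels were 49.7, 51.4, 47.3 and 50.8 CPM in the controls, 45.4, 47.8, 44.4 and 46.0 under overexpression, and 51.2, 49.2, 47.1 and 50.8 under knockdown. Overexpression replicate 2 reached into the control range, and the knockdown and control ranges overlapped. The log2 difference was -0.12 ± 0.048 (SE; unadjusted p = 0.0286 and adjusted p = 0.776, edgeR). For its copy Gm10250 it was -0.060 ± 0.060, and for the sum of member and copy -0.077, with unadjusted p = 0.177 by edgeR.

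Ndufa5, an accessory subunit of the matrix arm of complex I (ENSMUSG00000023089, chr6:24518666-24528013), shares no 50-base word with another gene. It had 49.8, 51.2, 45.8 and 50.7 CPM in the controls and 42.3, 47.9, 43.0 and 45.1 under overexpression. The ranges overlapped through control replicate 3 and overexpression replicate 2. On the log2 scale the difference was -0.15 ± 0.063 (SE; unadjusted p = 0.0376 and adjusted p = 0.790, edgeR). Ndufb6, an accessory subunit of the membrane arm, had -0.12 ± 0.060 with adjusted p = 0.819 by edgeR.

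Cox6b2, the testis form of subunit 6b (ENSMUSG00000051811, chr7:4751792-4753094), was the member whose overexpression range lay above the control range. It had 0.994, 1.53, 1.56 and 1.47 CPM in the controls and 1.68, 1.59, 1.68 and 2.13 under overexpression, with knockdown at 1.26, 0.790, 1.57 and 1.53. Its log2 difference was 0.34 ± 0.22 (SE; adjusted p = 0.853, edgeR), and 0.21 without control replicate 1. Such ranges did not overlap in 1 of 82 members and in 2.71% of all genes.

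The other members named by smallest p showed similar sizes. The log2 differences were -0.11 ± 0.076 for Cox8a, -0.14 ± 0.099 for Uqcr11 and -0.12 ± 0.084 for Uqcrq, small subunits of complexes IV and III. Sdhb had -0.049 ± 0.063, Cycs -0.072 ± 0.096 (-0.13 to -0.015 when each library was left out) and Atp5s, a coupling factor named with ATP synthase, 0.10 ± 0.063. All 6 adjusted p-values were between 0.849 and 0.930 (edgeR). The Cycs copy Gm10053 had -0.40 ± 0.18 and the sum of both -0.15, with unadjusted p = 0.082 by edgeR. Atp5l, the least unique member, had 0.22 ± 0.15 (unadjusted p = 0.174, edgeR), and its copy Gm10221 -0.28 ± 0.12 (adjusted p = 0.789, edgeR). Summed with its copies Atp5l had -0.23, with unadjusted p = 0.0422 by edgeR, so its sign changed. The smallest adjusted p among members with copies summed was 0.792 by edgeR. Uqcr11 had 39.2, 44.8, 35.4 and 46.6 CPM in the controls and 33.9, 38.2, 35.5 and 42.9 under overexpression. Control replicates 2 and 4 were high and overexpression replicate 1 low, an order that recurred across the members.

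**Figure D3:**
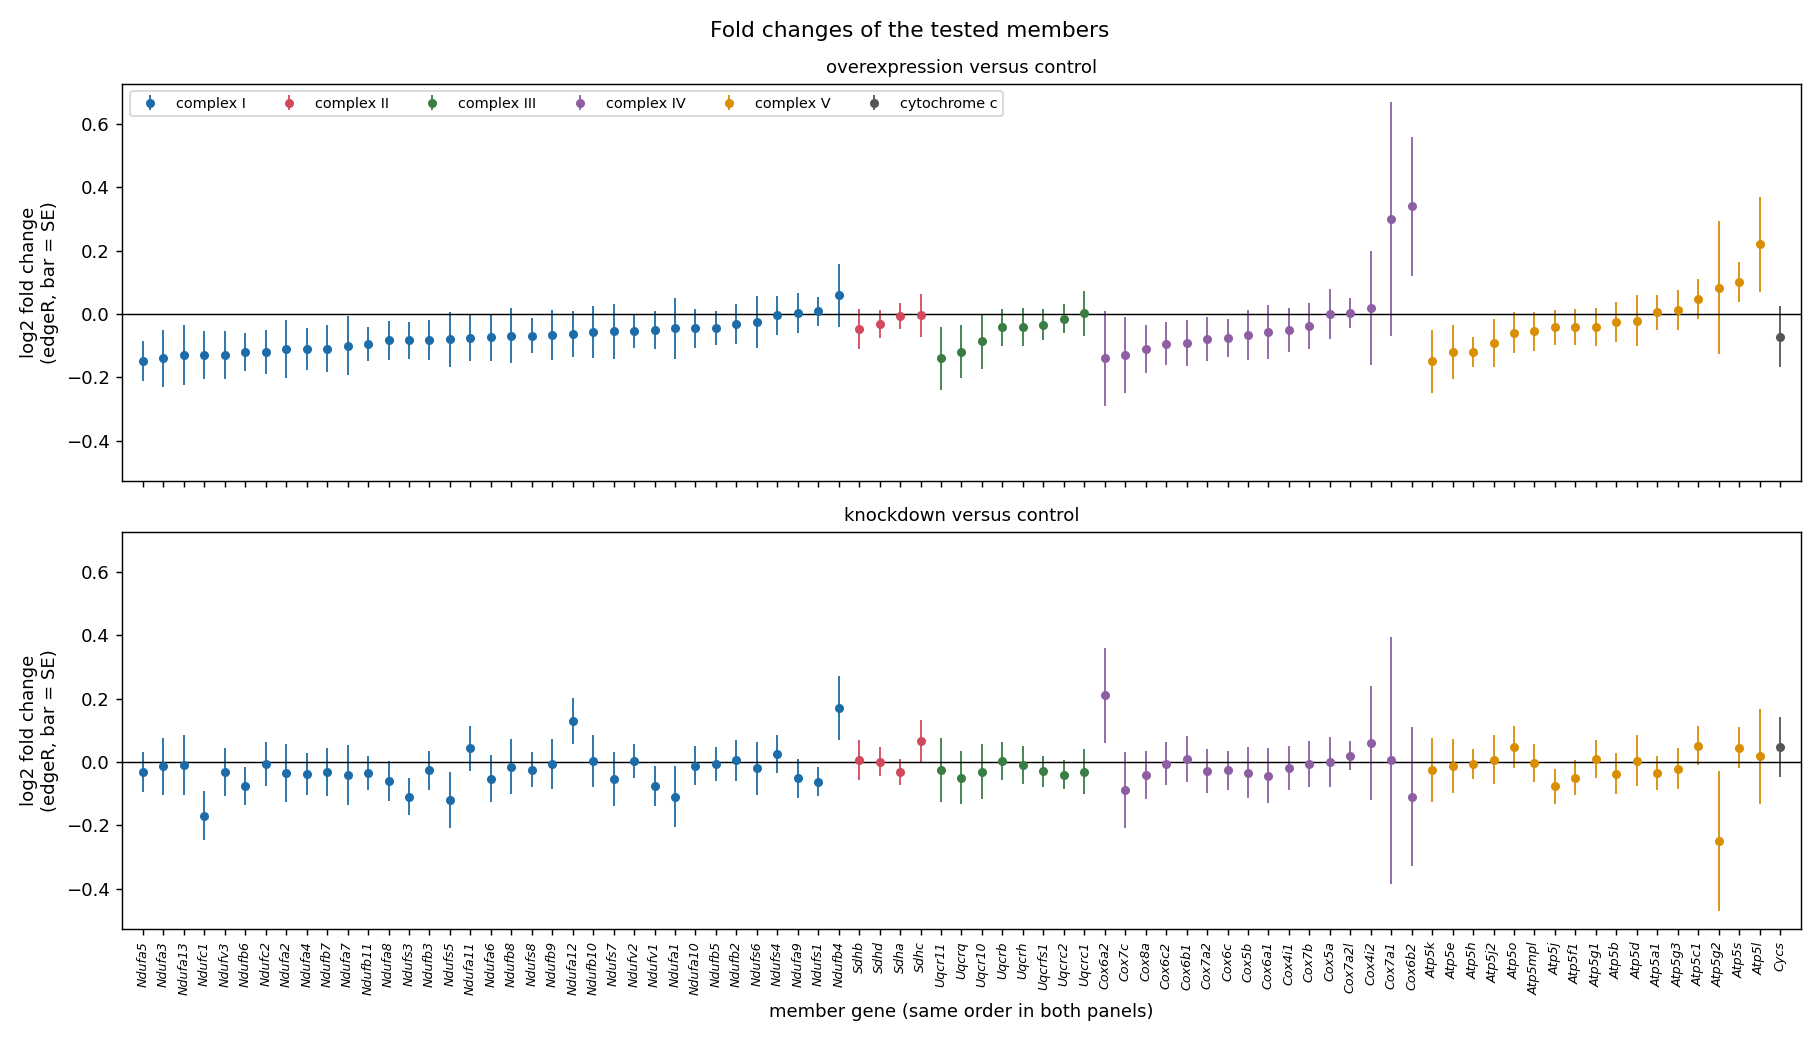
Log2 fold change of the tested members shown against control (edgeR, bars are SE, 4 libraries a group) for overexpression above and knockdown below, in the same gene order. Points of the upper panel sit mostly below 0, and the widest bars belong to the low isoforms of complexes IV and V. Over all 82 tested members the median absolute difference there was 0.068 beside a median SE of 0.07. Many members lay further from 0 than their own SE, such as Ndufa5 at -0.15 ± 0.063 and Atp5h at -0.12 ± 0.048.

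Knockdown against control gave smaller differences still, and it shares its control libraries with the comparison above. No member passed the test, with 0 of 82 called and a smallest adjusted p among members of 0.878 by edgeR, where 0.00547% of all genes were called. DESeq2 called 0.235% of genes and limma-voom 0.00547%, again with 0 members. At an unadjusted p under 0.05 there was 1 member, against 5.68% of all genes. The log2 difference was below 0 in 58 of 82 members against 48.2% of all genes, and the median was -0.023 against 0.0047 over all genes. By complex the medians were -0.031, 0.0027, -0.030, -0.012 and -0.0067 for complexes I to V , and 78 members lay within 10% of control. The signs of these complex medians were not stable. Without control replicate 4 complexes I, III, IV and V were above 0, at 0.0034, 0.0087, 0.00028 and 0.0031, and without control replicate 2 complexes IV and V were, at 0.0093 and 0.0088. Complex V was also above 0 without knockdown replicate 2 or 3, at 0.0052 and 0.0075, and with total counts alone, at 0.0022. Complex II was below 0 under 9 alternatives, from -0.018 without control replicate 1 to -0.00048 on variance-stabilised values. Without control replicate 4 the median was 0.0030 with 35 members below 0, so its direction rested on that library, and without control replicate 2 it was -0.0027. It was -0.006 without knockdown replicate 3, and -0.052 and -0.040 without control replicate 3 and knockdown replicate 1.

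Ndufc1, a small accessory subunit of complex I (ENSMUSG00000037152, chr3:51404677-51408988), had the smallest p. Its levels were 15.9, 16.9, 15.0 and 17.4 CPM in the controls, 13.2, 14.2, 15.3 and 15.2 under knockdown, and 13.8, 15.5, 14.1 and 16.1 under overexpression. Knockdown replicates 1 and 2 were below all controls and the other two were not. The log2 difference was -0.17 ± 0.078 (SE; unadjusted p = 0.0498 and adjusted p = 0.878, edgeR).

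Ndufs3, a core subunit of the matrix arm, came next. It had 21.5, 21.5, 21.7 and 22.3 CPM in the controls and 20.0, 21.6, 19.9 and 18.8 under knockdown. Only knockdown replicate 2 reached the control range. This gave a log2 difference of -0.11 ± 0.058 (SE; adjusted p = 0.897, edgeR), against -0.066 for the sum with its copy Gm12251.

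Ndufa12, an accessory subunit of the matrix arm (ENSMUSG00000020022, chr10:94198720-94221443), was the member whose knockdown range lay above the control range. It had 27.0, 28.6, 27.7 and 29.3 CPM in the controls, 29.9, 29.8, 29.4 and 33.7 under knockdown, and 25.2, 29.4, 24.0 and 29.1 under overexpression. The gap between knockdown and control was narrow, and knockdown replicate 4 stood apart. For the member the log2 difference was 0.13 ± 0.073 (SE; adjusted p = 0.900, edgeR), but -0.078 ± 0.081 for its copy Gm15920 and 0.020 for their sum. Ranges did not overlap in 1 of 82 members and in 4.11% of all genes.

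In the other complexes Cox6a2 had 0.21 ± 0.15, Cox7c -0.088 ± 0.12, Atp5g2 -0.25 ± 0.22 and Atp5j, coupling factor 6, -0.077 ± 0.055 (log2 ± SE). Uqcrc2 had -0.040 ± 0.046, Uqcrfs1 -0.030 ± 0.049, Sdhc 0.066 ± 0.067 and Cycs 0.047 ± 0.096. All of these adjusted p-values were at least 0.916 (edgeR). For Cox7c, which holds fewer counts than its copy, the copy Gm12338 had -0.27 ± 0.10 and the sum -0.25, with unadjusted p = 0.0253 by edgeR.

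Overexpression was also compared with the libraries labelled knockdown, in which a lower Ttr level was not shown. No member passed the test, with a smallest adjusted p among members of 0.967 and 0.00547% of all genes called by edgeR. DESeq2 called 0.0164% of genes and limma-voom 0.0%, with 0 members in each. At an unadjusted p under 0.05 there were 3 members, against 5.1% of all genes. Below 0 were 60 of 82 members against 49.9% of all genes, with a median of -0.041 against 0.0002. With the deposited TPM the median was 0.0027 while that of all genes was 0.0448, so the sign of the members' median depends on the scaling. Leaving out overexpression replicate 1 gave -0.011 and replicate 3 -0.021, and leaving out replicate 2 gave -0.078 and replicate 4 -0.068. It was -0.026 without knockdown replicate 1. By complex the medians were -0.05, -0.043, -0.037, -0.036 and -0.0045 for complexes I to V. Over 19 alternatives for each complex, the sign changed in 0, 2, 2, 3 and 7 of them.

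The 3 members were Ndufa12 at -0.19 ± 0.073, Atp5h at -0.11 ± 0.048 and Cox6a2 at -0.35 ± 0.15 (log2 ± SE; adjusted p = 0.967 each, edgeR). With copies summed, 1 of these members, Cox6a2, had an unadjusted p under 0.05. Ndufa12 summed with Gm15920 had -0.11, with unadjusted p = 0.133 by edgeR, and -0.042 for the copy alone. Atp5h summed with Gm10250 had -0.078, with unadjusted p = 0.174 by edgeR. Cox6a2, the muscle form of subunit 6a, which is also known from fast-spiking interneurons, had 2.94, 3.14, 3.11 and 3.51 CPM in the controls. It had 2.87, 3.55, 2.11 and 2.98 under overexpression and 3.93, 3.20, 3.42 and 4.23 under knockdown. Overexpression replicate 3 was the lowest and knockdown replicate 4 the highest, and the ranges overlapped. Interneuron markers summed to 809 to 892 CPM in the controls, 791 to 1080 under overexpression and 779 to 1110 under knockdown, and their part in the Cox6a2 values was not tested. Ndufa12 below and Cox6b2 above were the members whose ranges did not overlap, against 2.37% of all genes. In the other complexes Ndufa5 had -0.12 ± 0.063, Uqcr11 -0.12 ± 0.10, Uqcrq -0.070 ± 0.084, Sdhc -0.071 ± 0.067, Atp5o -0.11 ± 0.066, Cox6b2 0.45 ± 0.22 and Cycs -0.12 ± 0.096.

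Within the control and overexpression groups the spread between libraries was larger than the differences between group means, and members moved together from library to library. The level of the 82 members in a library, as the median of log2 CPM minus each gene's mean over the 12 libraries, was -0.019, 0.079, -0.058 and 0.11 in the controls. It was -0.13, 0.066, -0.097 and 0.028 under overexpression and 0.034, -0.0046, -0.037 and 0.038 under knockdown. Control replicate 4 was the highest and overexpression replicate 1 the lowest, and the 3 group ranges overlapped. The group means were 0.027 ± 0.078, -0.034 ± 0.095 and 0.0075 ± 0.035 (SD, n = 4 each). In bulk tissue, fewer cells of a type and less RNA per cell cannot be told apart.

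**Figure D4:**
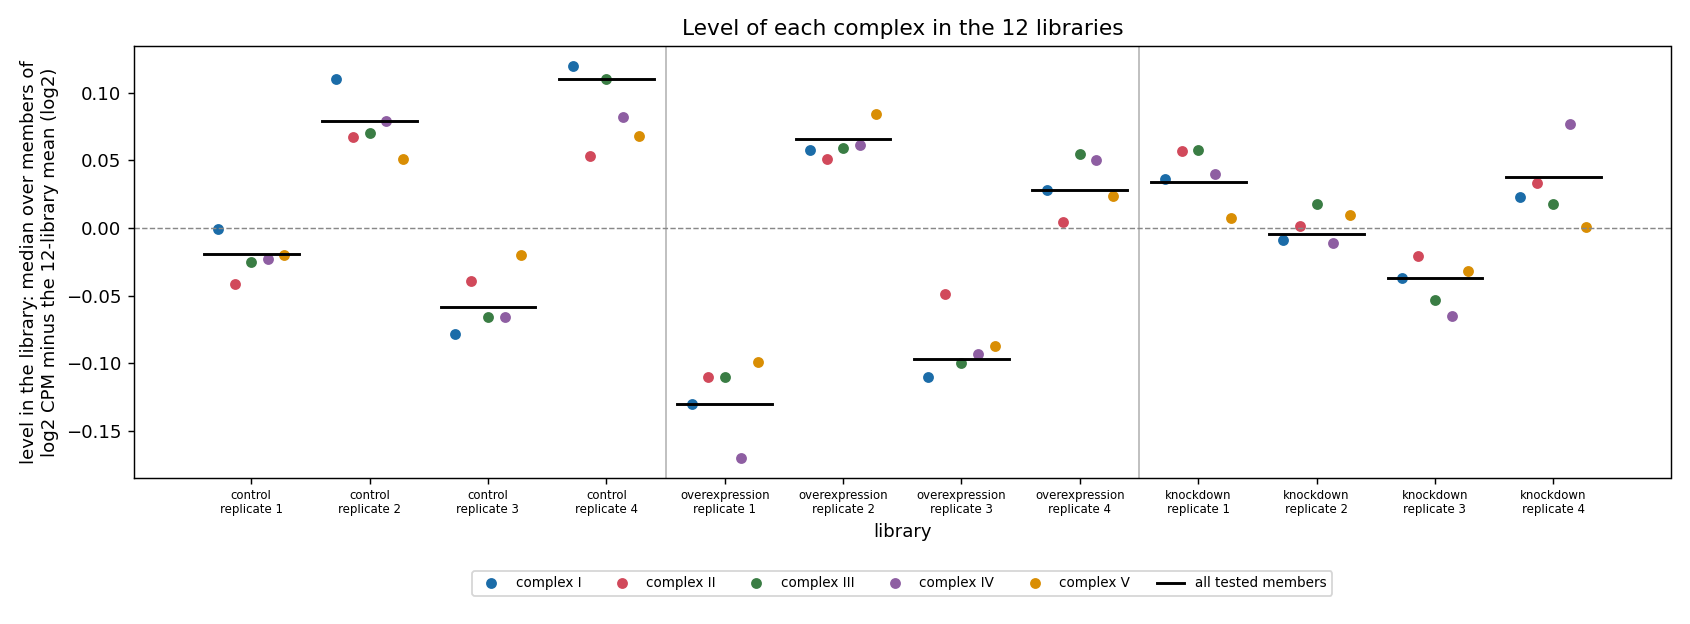
Level of complexes I to V in each library (coloured points) and of all 82 tested members (black line), as the median of log2 CPM minus the gene's mean over the 12 libraries. The points of a library lie close together, from about -0.17 to -0.099 in overexpression replicate 1 to 0.053 to 0.12 in control replicate 4.

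Overexpression replicate 1 was the lowest library in each of the 5 complexes, at -0.11 in complex II. Control replicate 4 was the highest for complexes I, III and IV, control replicate 2 for complex II at 0.067 and overexpression replicate 2 for complex V at 0.084. Complex I was at -0.13 in overexpression replicate 1 and at 0.12 in control replicate 4, and complex IV at -0.17 and 0.082. Complex III was at -0.11 and 0.11, and complex V at -0.099 and 0.068. Overexpression replicate 1 was the lowest of the 12 libraries for 37 of 82 members, against 6.62% of all genes, and control replicate 4 was the highest for 31, against 7.92%. Overexpression replicate 3 lay below the gene's own mean for 75 members and control replicate 4 above it for 75.

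Within groups, the median residual SD of a member was 0.10 on the log2 scale, against 0.15 over all genes, not matched for level. Subtracting the library's member median from each member brought it to 0.0684, narrower in 67 of 82 members. Sdha had the smallest within-group SD, 0.0292, with 434, 447, 430 and 423 CPM in the controls, 435, 446, 421 and 424 under overexpression and 426, 422, 422 and 424 under knockdown. Cox7a1 had the largest, 0.519, at 0.331 to 1.22 CPM over the 12 libraries. In their own counts Atp5l, Atp5g2, Cox6b2 and Cycs did not follow the common order: Cycs was at -0.16 in control replicate 4, where complex I was at 0.12. Gm10221, a copy of Atp5l with more counts, was highest in control replicate 4 at 43.9 CPM and lowest in overexpression replicate 1 at 25.8. The Cycs copy Gm10053 was also highest in control replicate 4, at 5.38 CPM, but lowest in overexpression replicate 4, at 2.75. The part of read assignment in these exceptions was not tested.

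**Figure D5:**
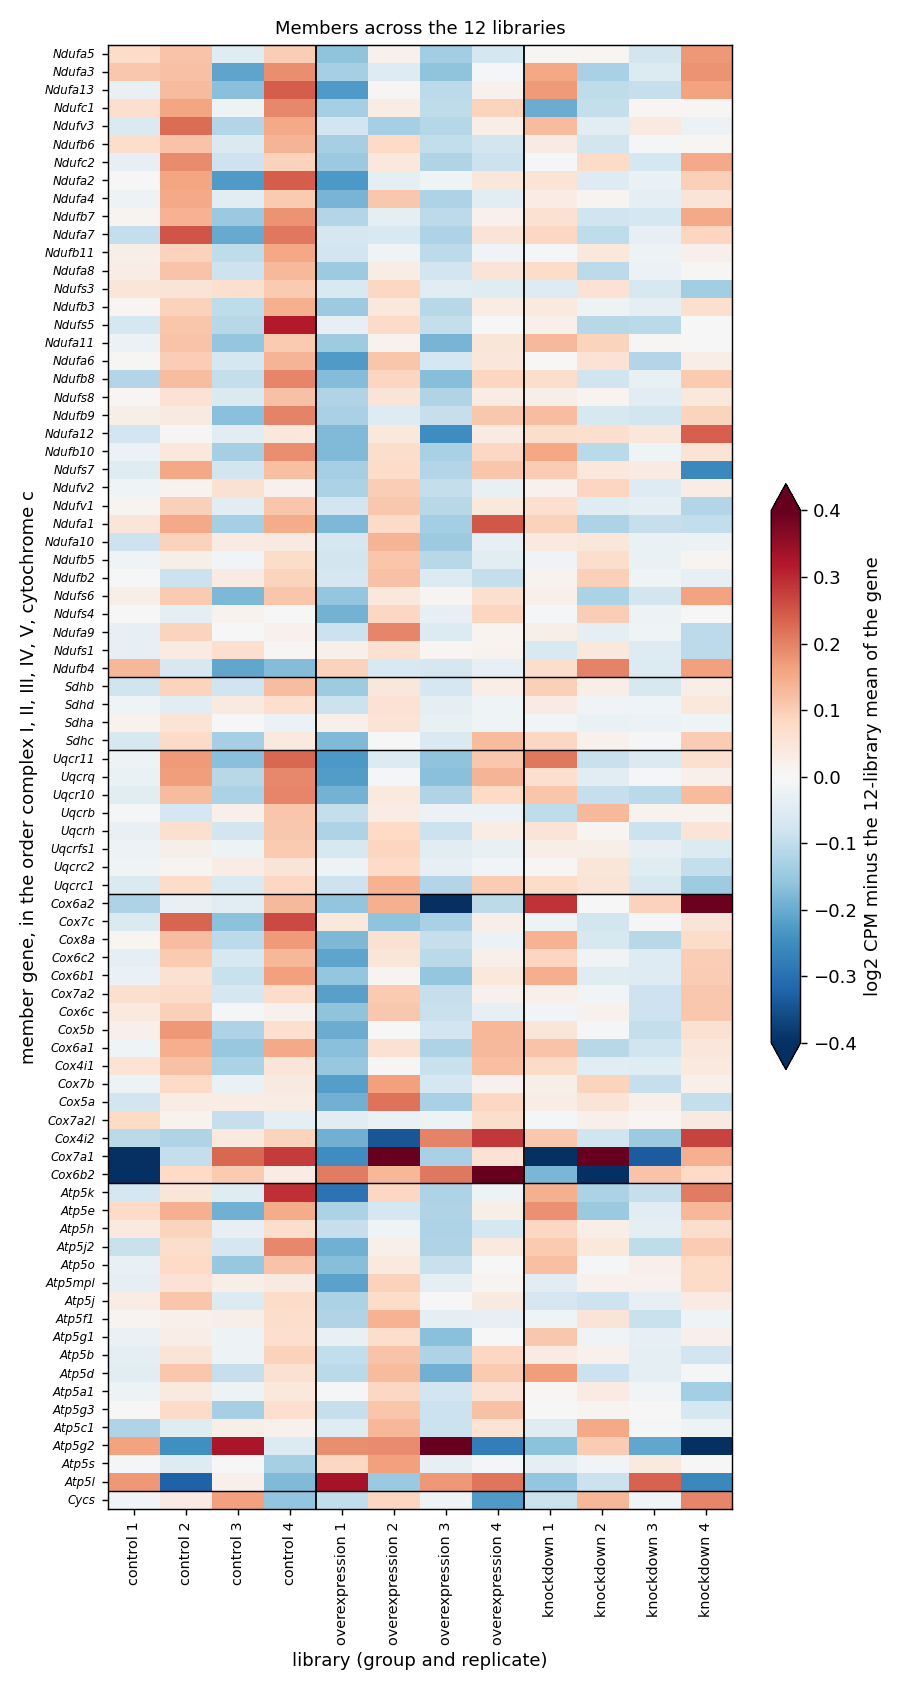
Log2 CPM minus the gene's 12-library mean for the tested members shown (rows, by complex and by overexpression difference) in the 12 libraries (columns, groups separated by lines), with colours saturating at 0.4 in either direction. Columns of control replicates 2 and 4 are mostly red and those of overexpression replicates 1 and 3 mostly blue, and low-count members at the foot of complexes IV and V break the pattern.

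Other genes of the pathway were read from fixed lists, and 0 passed in any comparison. The 13 subunits encoded by mitochondrial DNA had a median log2 difference of -0.017 under overexpression and 0.12 under knockdown, with 11 of 13 above 0 under knockdown. Their order of libraries was not that of the nuclear members: control replicate 4 was their lowest at -0.31 and knockdown replicate 4 their highest at 0.39. mt-Co1, the catalytic subunit of complex IV, had 12600 to 16500 CPM in the controls and 14100 to 16300 under overexpression, with log2 differences of 0.0079 ± 0.12 under overexpression and 0.14 ± 0.12 under knockdown. Assembly factors (46 tested) had medians of -0.019 and -0.0083, and enzymes of the tricarboxylic acid cycle (18 tested) -0.010 and -0.011. Related genes that the symbols do not catch, not all of them subunits (6 tested), had -0.057 and 0.0056.

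Of 19 regulators of these genes, Nrf1 and Gabpa had an unadjusted p under 0.05 under overexpression, and Nrf1 and Lrpprc under knockdown, 2 of 19 in each where the share over all genes was 6.26% and 5.68%. Nrf1, which encodes the factor whose core letters are shown above, had 18.1 to 19.8 CPM in the controls, 16.1 to 18.0 under overexpression and 15.7 to 17.4 under knockdown. Neither range overlapped that of the controls, which both comparisons share, and ranges did not overlap in 2.71% and 4.11% of all genes. The log2 differences were -0.15 ± 0.062 (adjusted p = 0.776) and -0.19 ± 0.063 (adjusted p = 0.753, edgeR), which did not pass. Gabpa had 0.17 ± 0.080 under overexpression (adjusted p = 0.797), and Lrpprc, a stabiliser of mitochondrial mRNA, -0.11 ± 0.045 under knockdown (adjusted p = 0.843, edgeR).

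Several other gene groups were also low under overexpression. The median was -0.047 for the mitochondrial ribosome with 56 of 74 below 0, -0.058 for the mitochondrial translocases with 13 of 19, and -0.045 for cytosolic ribosomal proteins with 62 of 79. It was -0.035 over the 3144 tested genes of exon length up to the members' median of 1578 bases. The mitochondrial ribosome was at -0.065 and -0.067 in overexpression replicates 1 and 3 and at 0.072 in control replicate 4, where the members were low and high. The other lists followed the members less closely: the cytosolic ribosomal proteins were at -0.13 in overexpression replicate 2, where the members were at 0.066, and at -0.010 in replicate 3. The translocases were at 0.015 in control replicate 4.

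Markers of cell types also moved between libraries. Neuron markers, 12 of 12 tested, had medians of -0.058 under overexpression and -0.082 under knockdown, with summed levels of 14400 to 16100 CPM in the controls, 13500 to 17100 under overexpression and 13700 to 15600 under knockdown. They were at -0.10 and -0.12 in overexpression replicates 1 and 3 but at 0.0083 in control replicate 4, where the members were highest. Mural and meningeal markers (13 of 13 tested) summed to 219 to 282 CPM in the controls, 302 to 428 under overexpression and 250 to 285 under knockdown, with 13 of 13 above 0 under overexpression, a median of 1.05 and 11 at an unadjusted p under 0.05, and a median of 0.20 with 4 at such a p under knockdown. Oligodendrocyte markers (8 of 8 tested) summed to 3830 to 9400, 3780 to 5550 and 2400 to 5490 CPM. They were below 0 in 8 of 8 in both comparisons, with medians of -0.29 and -0.47 and 0 at an unadjusted p under 0.05 by edgeR. Markers of striatal projection neurons (8 of 8 tested) summed to 209 to 888, 184 to 1160 and 174 to 1000 CPM. Of these, 8 were above 0 under overexpression and 6 under knockdown, with medians of 0.32 and 0.19. Microglia markers were above 0 in 8 of 8 in both comparisons, with medians of 0.25 and 0.27, and summed to 465 to 542 CPM in the controls, 439 to 898 under overexpression and 526 to 777 under knockdown. Endothelium markers were too, 8 of 8, with medians of 0.21 and 0.24 and 4 and 3 at an unadjusted p under 0.05, and sums of 196 to 225, 223 to 290 and 223 to 286 CPM. Choroid plexus markers (5 of 9 tested, 5 above 0 in both) had medians of 1.1 and 0.47, with sums of 4.64 to 5.47, 5.11 to 13.9 and 5.61 to 10.1 CPM. Lymphocyte markers (3 of 7 tested) had 3.75 and 0.27, with sums of 3.71 to 11.3, 5.44 to 80.4 and 2.55 to 15.1 CPM. No marker of mural and meningeal cells, microglia, endothelium, choroid plexus or lymphocytes passed edgeR's test against control. At an unadjusted p under 0.05 there were 0 and 1 of microglia, 1 and 1 of choroid plexus and 2 and 0 of lymphocytes. No marker in these lists was at 0 in all libraries. The part of cell makeup, gene length or library in the members' differences was not tested.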

How the data were processed

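Whole-tissue poly(A) RNA of 12 libraries was analysed from the authors' deposited counts per gene, which are not normalized. Per the submitters' processing notes, DESeq2, featureCounts, UMI-tools and bcl2fastq 2.20.0.422 and the build GRCm38 (mm10) entered the processing, in roles not stated. Aligner, strand setting and duplicate removal were not stated. The authors also deposited TPM and variance-stabilised values on a log2 scale, both used for alternatives and TPM for levels. Symbols were matched for 55141 of 55401 identifiers, and the other 260 held 0.00474% of counts. The members and lists were chosen with earlier results of these data known.

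Counts were tested with edgeR 4.0.16 in R 4.3.3 (quasi-likelihood, TMM factors, default expression filter, all 12 libraries, 3 group means, two-sided), with Benjamini-Hochberg adjustment over 18289 genes and a threshold of 0.05. The common biological coefficient of variation was 0.126. The fit was tested on simulated data, where it recovered 61.2% of 1.5-fold changes for overexpression against control and 40% for knockdown against control. For 2-fold changes these were 79.1% and 82.1%. Changes under 10%, the size seen in most members, were not simulated. CPM used the TMM factors, and log2 CPM for library levels a prior count of 2. Alternatives were other scalings and filters, DESeq2 1.42.0, limma-voom (limma 3.58.1), limma on log2(TPM + 0.1) and log2(TPM + 1), the variance-stabilised values, fits without the third group, a block for replicate number, and leaving out each library. Members were named by a rule: in each comparison the 2 smallest p-values of complexes I, III, IV and V, the smallest of complex II, and Cycs, with further members for levels or for their copies. Ndufb4, Atp5k and other members stand only in the plots. Uniqueness was the share of a gene's 50-base transcript words (GENCODE M21) found in no other gene. Replicates of a group differed by more than sampling noise (chi-square per degree of freedom 5.44 to 28.7 over 18 pairs), so none was counted as a repeat deposit. Total counts of 19879629 to 37166146 per library set the precision, and the SEs cover the spread between libraries. Protein sequences were not used here. The values of 1 member are not reported here by name and not drawn in the plots of single members; it stays in all counts and medians.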

Additional observations from a re-analysis of the deposited data

Results flagged for a closer look

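A library far from the other 3 of its group was found for 3 of the 81 groups of 4 values checked, where chance gives about 1 in 20. These were the CPM of 20 named members in each of the 3 groups, and the library levels of all members, of each complex and of Cycs. All 3 were single members. The measure is the gap to the nearest library divided by the group's range, set against Dixon's 95% limit for 4 values. Ndufs3 under overexpression had a share of 0.890, with replicate 2 at 22.0 CPM and the others at 19.9 to 20.1. Ndufa12 under knockdown had 0.881, with replicate 4 at 33.7 CPM and the others at 29.4 to 29.9. Cox6b2 in the controls had 0.855, with replicate 1 at 0.994 CPM and the others at 1.47 to 1.56.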

How the results depend on the processing

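Under every alternative run, 0 members passed in any comparison. The members' and complexes' medians (18 results, 345 alternative values) moved in 0 cases by more than 1 SD of the libraries' level. That SD was 0.0739 for all members and 0.0563 to 0.0864 for the complexes. It was larger than each of these medians, so the count does not show that they were stable. The members' median changed sign under the TPM scale (overexpression against knockdown) and without control replicate 4 (knockdown against control). Without that library 4 of 5 complex medians of knockdown against control changed sign too. Under some alternatives the sign also changed for complexes II, III and V in overexpression against control, and for complexes II to V in overexpression against knockdown. The number of genes called over the whole table was 1 in each comparison and was less stable. For overexpression against control it was 38 with DESeq2, 0 with limma-voom, 0 with only the groups compared, and 0 to 4 when each library was left out. For knockdown against control it was 43 with DESeq2, 0 with either TPM pseudocount, 2 with only the groups compared, and 0 to 10 when each library was left out. For overexpression against knockdown it was 3 with DESeq2, 0 with limma-voom, and 0 to 2 when each library was left out. With the replicate number as a block it was 1, 0 and 2 in these comparisons. The labels do not say that the numbers pair samples, and same-numbered libraries had deviations correlated from -0.341 to 0.16 over 12 pairs, with 1 library correlating best with its own number, so the block was not used elsewhere. Among 30 named values with 570 alternative values, 4 changed sign: Cycs under knockdown, -0.041 with copies summed and -0.0051 without control replicate 4 (up to 0.10 without control replicate 3), and Sdhb under overexpression, 0.0021 on both TPM scales. Atp5l under overexpression, not among these 30 values, also changed sign, from 0.22 to -0.23 with copies summed. The causes were not tested. Summing copies with members and keeping only members at least 90% unique were chosen after seeing the data, and gave members' medians of -0.062 and -0.055 under overexpression. Depth limits the isoforms Cox7a1, Cox4i2, Cox6b2 and Atp5g2, at about 1 CPM, and with 4 libraries a group the single-member SE was about 0.070.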
